A study of Mus musculus with 12 samples.

Results

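The 10 immediate early genes Egr1, Fos, Jun, Junb, Ier2, Ier3, Dusp1, Myc, Gadd45b and Gadd45g were followed in mouse liver. They are the rows of the count table whose Ensembl identifier carries 1 of these symbols. The rule uses no measured value, but the symbols were picked with earlier results of these data known. All 10 were found among the 50686 genes of the table, and all 10 passed the filter on low counts that left 14248 genes for testing. The study lowered Eif3m, a subunit of the translation initiation factor eIF3, in the livers of FVB/N mice aged 6 to 8 weeks and sequenced liver messenger RNA. Small interfering RNA (siRNA), packed into lipid nanoparticles, was injected into the tail vein. The dose was 0.5 mg/kg, given 1 time in 5 days. The 4 groups were Eif3m siRNA for 9 days, luciferase control siRNA for 9 days, Eif3m siRNA for 13 days and luciferase control siRNA for 13 days, with 3 libraries each. All groups, controls included, thus received siRNA in lipid nanoparticles. The labels do not say that the replicates of a group are separate animals, so a p-value reflects only how these samples spread, which may be technical.

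Immediate early genes are switched on within minutes of a growth factor, cytokine or stress signal, without new protein synthesis, largely through mitogen-activated protein (MAP) kinases acting on transcription factors already present. Their transcripts are short-lived, and several encode transcription factors, such as the AP-1 subunits Fos and Jun, or brakes on the pathway, such as the phosphatase Dusp1. In liver they are known for their early response to partial hepatectomy, the onset of regeneration.

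Libraries of day 9 were made with a KAPA mRNA capture kit and held 38783564 to 54538581 counts, and libraries of day 13 with the RNAseq-Neoprep kit and held 7650269 to 9630027 counts. Day, kit and depth cannot be told apart, so levels of the days are only set side by side, and a difference of siRNA effects between days is also one between kits. Levels are given as CPM, library-scaled counts with TMM factors, in the order of replicates 1, 2 and 3. Eif3m stood at 4.88, 4.78 and 4.71 CPM in Eif3m siRNA livers of day 9, against 45.1, 44.1 and 45.4 CPM in that day's controls. At day 13 it stood at 2.52, 2.41 and 2.19 CPM in Eif3m siRNA livers, against 39.8, 38.0 and 31.2 CPM in controls. The groups did not overlap, and the exact two-sided permutation test of 3 against 3 gave p = 0.1 at each day, the smallest it can give. The siRNA groups thus kept 10.7% of the control Eif3m level at day 9 and 6.53% at day 13 by edgeR's estimate. On the third principal component, control replicate 3 and Eif3m siRNA replicate 2 of day 13 stood apart from their groups, at 52.0 and 36.9, where the other libraries of day 13 lay between -37.6 and -4.68. The mitochondrial share of counts was 3.93% to 4.16% with Eif3m siRNA and 3.66% to 3.90% in controls at day 9, and 4.47% to 5.20% with Eif3m siRNA and 3.14% to 5.73% in controls at day 13. No hepatocyte, Kupffer cell, endothelial or stellate cell marker was at 0 in any library. In whole liver, fewer cells of a type and less RNA per cell cannot be told apart.

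Jun rose with Eif3m siRNA at both days, while Egr1 fell at day 9 and rose at day 13. Junb rose and Gadd45b fell at day 13, and Gadd45g rose at day 9. Fos, Ier2, Ier3, Dusp1 and Myc passed the test at neither day. The test was edgeR's quasi-likelihood F-test with Benjamini-Hochberg adjustment over all 14248 genes, and a gene is said to rise or fall where its adjusted p was below 0.05. At day 9, 3 of the 10 genes passed, 2 higher and 1 lower, against 12.8% of all genes tested, 5.94% higher and 6.84% lower, and the median log2 fold change was 0.21 for the 10 genes and 0.01 for all genes. At day 13, 4 of the 10 passed, 3 higher and 1 lower, against 23.7% of all genes, 12.8% higher and 10.9% lower, and the median was 0.66 for the 10 genes and 0 for all genes. Without overlap between Eif3m siRNA and control libraries were 4 of the 10 at day 9, against 43.5% of all genes, and 5 of the 10 at day 13, against 33.2% of all genes. The siRNA effect itself differed between the days for 3 of the 10, 2 upward and 1 downward, against 2.55% of all genes, 0.898% upward and 1.66% downward. With any 1 of the 12 libraries left out, 4 genes still passed at day 13, those without the libraries that stood apart included. At day 9 the number lay between 1 and 3.

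**Figure D1:**
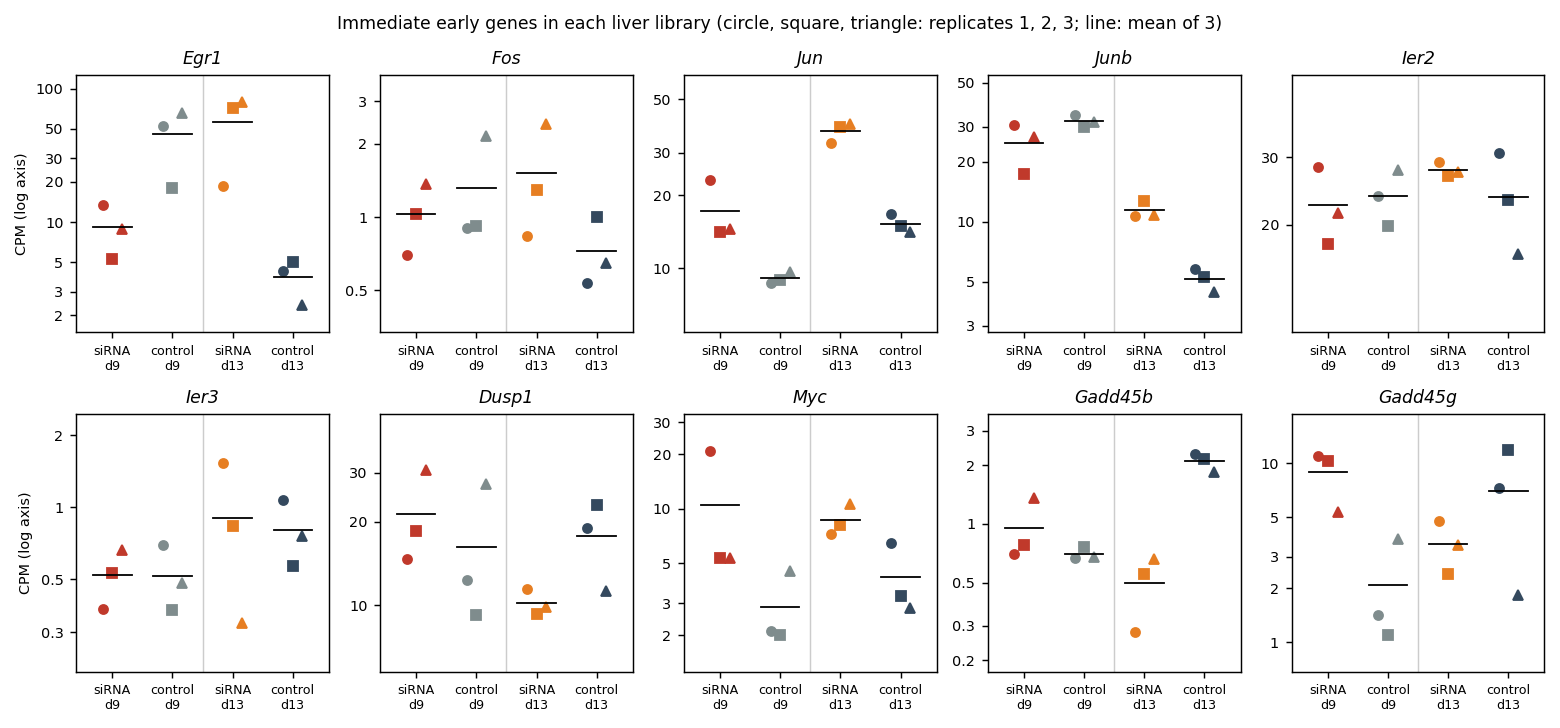
CPM of each of the 10 genes in each library, on a log axis, in Eif3m siRNA and control livers of day 9 (left) and day 13 (right). Symbols give the replicate and the line gives the mean of 3 libraries. Egr1 lies lower in Eif3m siRNA livers at day 9 and higher at day 13, and Jun lies higher at both days.

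Egr1 encodes a zinc finger transcription factor that binds GC-rich promoters and is switched on by serum and growth factors. It lies at chr18:34859823-34864984 on the plus strand (GRCm38) and has 2 exons. In Eif3m siRNA livers of day 9 it had 13.5, 5.28 and 8.88 CPM, against 52.7, 18.1 and 65.3 CPM in controls. In Eif3m siRNA livers of day 13 it had 18.6, 71.5 and 79.7 CPM, against 4.31, 4.99 and 2.38 CPM in controls. The lowest control of day 9 thus lay above the highest Eif3m siRNA library of that day, and at day 13 every Eif3m siRNA library lay above every control. The control libraries of day 9 reached 65.3 CPM, and those of day 13 no more than 4.99 CPM, which is 22 to 35 counts a library. Egr1 had a log2 fold change of -2.30 (standard error 0.62, adjusted p = 0.0426) at day 9 and 3.90 (SE 0.77, adjusted p = 0.00624) at day 13. The difference of the effects was 6.20 on the log2 scale (SE 0.99, 95% interval 3.95 to 8.45, adjusted p = 0.0186). Opposite calls at the days were made for 47 genes in all, or 0.33% of those tested, and Egr1 was the only one of the 10 genes among them.

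The Egr1 call of day 9 was held in 8 of 21 alternatives and missed the threshold in 13, while the log2 fold change stayed between -2.69 and -1.94. It was lost when any Eif3m siRNA library of day 9 was left out (adjusted p = 0.0650, 0.130 and 0.113 without replicates 1, 2 and 3). It was also lost without control replicate 1 (0.0986) or 3 (0.112) of day 9. Leaving out libraries of day 13, which enter through the shared spread, lost it too: Eif3m siRNA replicates 2 (0.0607) and 3 (0.0551) and control replicates 1 (0.0623), 2 (0.0573) and 3 (0.0591). With all libraries of day 9 kept, it was lost on that day's libraries alone (0.0562) and with day 9 counts thinned to day 13 depth (0.0688). Dropping the filter on low counts lost it as well (0.0918). The day 13 call was held in 21 of 21 alternatives. The difference between the days missed the threshold without control replicate 3 of day 13, at 5.89 and an adjusted p of 0.0577.

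Among the AP-1 genes, Jun was higher with Eif3m siRNA at both days, Junb at day 13, and Fos passed at neither. AP-1 is a dimer of a Fos and a Jun protein or of Jun proteins. Jun, a strong activator, drives hepatocyte proliferation in the regenerating mouse liver, and Junb is a weaker activator that can restrain Jun. The RefSeq promoters of the Jun genes, from 250 bases before to 50 after the start, are shown because Jun rose at both days and Junb at day 13 (GRCm38.p6, both on the minus strand, printed 5′ to 3′). They are chr4:95052173-95052472 for Jun and chr8:84978699-84978998 for Junb, and capitals mark the cyclic AMP response element core TGACG and the TATA box TATAAA.
Jun: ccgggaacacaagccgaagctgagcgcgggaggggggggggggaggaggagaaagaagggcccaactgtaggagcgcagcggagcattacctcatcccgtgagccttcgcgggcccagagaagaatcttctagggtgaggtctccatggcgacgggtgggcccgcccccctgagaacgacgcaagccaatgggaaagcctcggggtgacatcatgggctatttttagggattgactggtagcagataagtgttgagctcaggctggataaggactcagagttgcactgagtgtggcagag
Junb: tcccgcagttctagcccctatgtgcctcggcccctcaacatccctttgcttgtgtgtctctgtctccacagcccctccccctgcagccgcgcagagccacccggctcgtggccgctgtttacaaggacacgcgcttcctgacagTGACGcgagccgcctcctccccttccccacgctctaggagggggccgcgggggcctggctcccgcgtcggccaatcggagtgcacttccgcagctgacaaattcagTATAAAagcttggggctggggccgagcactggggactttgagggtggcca
Counted from the start, Junb holds TGACG at positions -106 to -102 and TATAAA at bases 1 to 6 of the transcript, as RefSeq places its start. Over all 32841 promoters of that length searched on both strands, 20.8% held TGACG and 13.6% held TATAAA. The Jun window holds none of the 9 motifs searched, which says only that these letters are not in this window.

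Jun lies at chr4:95049034-95052222 in a single exon of 3189 bases. It had 23.2, 14.2 and 14.5 CPM in Eif3m siRNA livers of day 9, against 8.67, 8.96 and 9.68 CPM in controls. After 13 days it had 32.9, 38.5 and 39.6 CPM in Eif3m siRNA livers, against 16.7, 15.0 and 14.1 CPM in controls. Every Eif3m siRNA library lay above every control of its day, and the controls of a day were close together. Jun had a log2 fold change of 0.93 (standard error 0.17, adjusted p = 0.00343) at day 9 and 1.28 (SE 0.18, adjusted p = 0.000246) at day 13, or 1.90-fold and 2.43-fold. Both calls were held in 21 of 21 alternatives. The effects of the days differed by 0.36 on the log2 scale (95% interval -0.18 to 0.89, adjusted p = 0.488). Exons of the antisense gene Junos overlap Jun, and since no strand setting is given in the sources used here, their reads could be shared. Junos itself had 13 to 18 counts a library with Eif3m siRNA and 2 to 8 counts in controls at day 9, against 337 counts or more for Jun.

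Junb, at chr8:84974484-84978718, had 30.7, 17.3 and 26.8 CPM in Eif3m siRNA livers of day 9, against 34.3, 29.8 and 31.6 CPM in controls. At day 13 the Eif3m siRNA livers had 10.6, 12.7 and 10.8 CPM, against 5.79, 5.27 and 4.44 CPM in controls. The groups of day 9 overlapped and those of day 13 did not. Junb had a log2 fold change of -0.36 (standard error 0.17, adjusted p = 0.191) at day 9 and 1.15 (SE 0.22, adjusted p = 0.00214) at day 13. The effects differed by 1.51 (SE 0.28, adjusted p = 0.0151), a call that limma-voom missed at an adjusted p of 0.0506. The day 13 call was held in 21 of 21 alternatives. Exons of Prdx2, which encodes a peroxiredoxin, overlap Junb on the other strand. Prdx2 averaged 98.4 ± 23.9 CPM with Eif3m siRNA and 99.0 ± 8.18 CPM in controls at day 13 (SD, n = 3 each), with a log2 fold change of -0.01 (edgeR adjusted p = 0.973).

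Fos, the partner of the Jun proteins, lies at chr12:85473890-85477273 and was scarce. It had 0.700, 1.03 and 1.36 CPM in Eif3m siRNA livers of day 9, against 0.900, 0.918 and 2.15 CPM in controls. Eif3m siRNA livers of day 13 had 0.839, 1.3 and 2.41 CPM, against 0.538, 0.997 and 0.650 CPM in controls. The groups overlapped at both days. Fos had a log2 fold change of -0.36 (standard error 0.39, adjusted p = 0.602) at day 9 and 1.09 (SE 0.57, adjusted p = 0.191) at day 13. Day 13 rested on 6 to 22 counts a library with Eif3m siRNA and 4 to 7 in controls, and its 95% interval, -0.14 to 2.32, includes both no change and the size seen for Junb.

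Beyond the members, 14 other AP-1 subunits and partners were listed, and 12 were tested. Atf3 rose at day 9 and Atf3 and Jund at day 13, and none fell at either day. Their median log2 fold change was 0.28 at day 9 and 0.23 at day 13. Of all genes tested, 12.8% passed at day 9 and 23.7% at day 13. Atf3, a stress-induced partner of the Jun proteins, averaged 3.34 ± 0.28 CPM with Eif3m siRNA and 1.08 ± 0.33 CPM in controls at day 9 (SD, n = 3 each). At day 13 it averaged 13.8 ± 1.94 CPM with Eif3m siRNA and 3.66 ± 1.66 CPM in controls. Its log2 fold change was 1.64 (adjusted p = 0.00154) at day 9 and 1.89 (adjusted p = 0.000357) at day 13. Jund, the Jun protein most abundant in resting cells, averaged 108 ± 20 CPM with Eif3m siRNA and 70.0 ± 23.2 CPM in controls at day 13 (log2 fold change 0.63, adjusted p = 0.0346). Its groups overlapped. The count of day 13 was 1 without Eif3m siRNA replicate 1 or 3 or control replicate 2 or 3 of that day.

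Ier2 and Ier3 are small immediate early proteins, Ier2 a nuclear regulator of transcription and Ier3 a modulator of cell survival. Ier2, at chr8:84661331-84662852 in a single exon, had 28.2, 17.8 and 21.4 CPM in Eif3m siRNA livers of day 9, against 23.7, 19.9 and 27.9 CPM in controls. With Eif3m siRNA for 13 days it had 29.2, 26.9 and 27.5 CPM, against 30.8, 23.2 and 16.8 CPM in controls. The groups overlapped at both days. Its log2 fold change was -0.08 (95% interval -0.51 to 0.35, adjusted p = 0.835) at day 9 and 0.24 (95% interval -0.23 to 0.71, adjusted p = 0.459) at day 13. Both intervals exclude an effect as large as the Jun estimate of the same day. Ier3, at chr17:35821684-35822923, lay between 0.377 and 0.661 CPM with Eif3m siRNA and between 0.371 and 0.694 CPM in controls at day 9. After 13 days it lay between 0.329 and 1.54 CPM with Eif3m siRNA and between 0.570 and 1.08 CPM in controls, on 3 to 11 and 4 to 8 counts a library. Its log2 fold changes were 0.03 (95% interval -0.87 to 0.93) and 0.11 (95% interval -1.08 to 1.31), so at this depth a change about as large as that of Jun lies within the intervals.

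Dusp1, at chr17:26505590-26562128, which removes the phosphates that activate MAP kinases and so ends their signal, passed at neither day. It had 14.7, 18.5 and 30.6 CPM in Eif3m siRNA livers of day 9, against 12.3, 9.22 and 27.3 CPM in controls. At day 13 it had 11.5, 9.27 and 9.86 CPM in Eif3m siRNA livers, against 19.0, 23.1 and 11.3 CPM in controls. The highest library of each group at day 9 was replicate 3, and at day 13 the lowest control lay just below the highest Eif3m siRNA library. Dusp1 had a log2 fold change of 0.39 (standard error 0.41, adjusted p = 0.590) at day 9 and -0.80 (SE 0.47, adjusted p = 0.257) at day 13. Exons of Ergic1 overlap Dusp1 on the other strand, and Ergic1 had log2 fold changes of -0.20 (adjusted p = 0.204) and 0.04 (adjusted p = 0.798).

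Of 17 other feedback genes of the MAP kinase pathway, 15 were tested. At each day Dusp8 and Dusp16 rose and Dusp14 fell, where 12.8% of all genes tested passed at day 9 and 23.7% at day 13. The median log2 fold changes of the list were 0.20 and 0.10. The count of day 9 was 1 without Eif3m siRNA replicate 2 of that day. Dusp8, a phosphatase of the stress kinases JNK and p38, averaged 1.86 ± 0.87 CPM with Eif3m siRNA and 0.152 ± 0.103 CPM in controls at day 9, and 4.39 ± 1.46 CPM with Eif3m siRNA and 0.860 ± 0.213 CPM in controls at day 13. Its log2 fold changes were 3.54 (adjusted p = 0.000479) and 2.35 (adjusted p = 0.00369). Dusp14 averaged 0.264 ± 0.040 CPM with Eif3m siRNA and 0.834 ± 0.325 CPM in controls at day 9 (adjusted p = 0.0131), and 0.108 ± 0.097 CPM with Eif3m siRNA and 2.42 ± 0.24 CPM in controls at day 13 (adjusted p = 0.000216). Few reads lie behind the lowest of these levels, Dusp8 in controls of day 9 and Dusp14 with Eif3m siRNA at day 13.

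Of 27 genes of the kinase cascade itself, 1 rose and 2 fell at day 9. At day 13, 3 rose and 6 fell, and the medians were 0.04 and -0.05. Over all genes, 12.8% passed at day 9 and 23.7% at day 13. Map2k3, a kinase that activates p38, fell at both days (log2 fold change -0.63, adjusted p = 0.00222, and -0.76, adjusted p = 0.00034). Nras, a small GTPase upstream of the ERK kinases, averaged 17.9 ± 0.9 CPM with Eif3m siRNA and 32.5 ± 2.5 CPM in controls at day 13 (log2 fold change -0.86, adjusted p = 0.000104), against 0.04 (adjusted p = 0.862) at day 9. The count of day 9 was 1 without Eif3m siRNA replicate 3 or control replicate 3 of that day. Among 15 transcription factors that act on immediate early promoters, such as serum response factor and its partners, Crem rose at day 9 (0.44, adjusted p = 0.0268) and Elk3 fell at day 13 (-0.51, adjusted p = 0.0114). The other factors passed at neither day. The Crem call was lost without any 1 library of day 9.

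Myc, at chr15:61985391-61990374, encodes the transcription factor that drives ribosome production and cell growth. It had 20.9, 5.35 and 5.35 CPM in Eif3m siRNA livers of day 9, against 2.11, 2.01 and 4.51 CPM in controls. At day 13 the Eif3m siRNA livers had 7.27, 8.16 and 10.6 CPM, against 6.46, 3.28 and 2.82 CPM in controls. The groups did not overlap at either day, and Eif3m siRNA replicate 1 of day 9 stood far above the rest. Myc had a log2 fold change of 1.87 (standard error 0.57, adjusted p = 0.0605) at day 9 and 1.07 (SE 0.69, adjusted p = 0.304) at day 13, so Myc passed at neither day. Without Eif3m siRNA replicate 1 the day 9 value was 0.89 (adjusted p = 0.148). It passed the threshold in 6 of 21 alternatives, among them without Eif3m siRNA replicate 2 (adjusted p = 0.0456) or 3 (0.0389), and with DESeq2 (0.00287) and limma-voom (0.0353). On the libraries of day 13 alone, the day 13 value passed as well (adjusted p = 0.0444).

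Genes known to be bound by Myc and to serve cell growth, many of them in ribosome production, were listed apart. The list also holds growth genes outside ribosome production, such as Odc1, Cad, Ldha and Cdk4. Of 27, all tested, 13 rose and none fell at day 9, and 15 rose and none fell at day 13. Over all genes tested, 12.8% passed at day 9 and 23.7% at day 13. The median of this list was 0.39 at day 9 and 0.51 at day 13, against 0.01 and 0 over all genes. Nop56, a core protein of the particles that methylate ribosomal RNA, averaged 26.6 ± 4.1 CPM with Eif3m siRNA and 12.2 ± 1.2 CPM in controls at day 9 (log2 fold change 1.13, adjusted p = 0.000344). After 13 days it averaged 67.6 ± 5.2 CPM with Eif3m siRNA and 22.9 ± 3.8 CPM in controls (1.56, adjusted p = 1.19e-05). Npm1, the nucleolar protein nucleophosmin, had log2 fold changes of 0.71 (adjusted p = 0.00122) and 1.37 (adjusted p = 4.7e-06), and Rrp12, which serves ribosome assembly and export, 1.28 (adjusted p = 0.000133) and 1.35 (adjusted p = 4.47e-05). Of 16 partners and regulators of Myc, 15 were tested. Mycn and Max rose and Mxd4 fell at day 9, and Fbxw7 rose and Mxd4 fell at day 13. Mxd4, a repressor that competes with Myc for its partner Max, had log2 fold changes of -0.38 (adjusted p = 0.0308) and -0.93 (adjusted p = 7.4e-05). The 3 calls of day 9 were 0 without Eif3m siRNA replicate 1 or 2, and 1 without Eif3m siRNA replicate 3 or control replicate 1 of that day.

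The GADD45 proteins bind and regulate stress kinases and cell cycle and DNA repair proteins, and here Gadd45g rose at day 9 and Gadd45b fell at day 13. Their RefSeq promoters are shown because both hold the E-box CACGTG, the kind of site bound by Myc and its partners, and both genes passed the test at 1 of the days (GRCm38.p6, both on the plus strand). They are chr10:80929841-80930140 for Gadd45b and chr13:51846425-51846724 for Gadd45g. Capitals mark the E-box, the TATA box and, in Gadd45g, the composite element TGATGNAA of C/EBP and ATF proteins, found on the other strand.
Gadd45b: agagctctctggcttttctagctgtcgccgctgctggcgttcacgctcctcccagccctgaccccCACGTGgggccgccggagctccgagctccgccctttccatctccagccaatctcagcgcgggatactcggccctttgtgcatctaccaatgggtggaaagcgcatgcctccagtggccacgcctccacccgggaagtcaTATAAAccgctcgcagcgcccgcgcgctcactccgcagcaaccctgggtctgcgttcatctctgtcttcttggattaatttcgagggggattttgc
Gadd45g: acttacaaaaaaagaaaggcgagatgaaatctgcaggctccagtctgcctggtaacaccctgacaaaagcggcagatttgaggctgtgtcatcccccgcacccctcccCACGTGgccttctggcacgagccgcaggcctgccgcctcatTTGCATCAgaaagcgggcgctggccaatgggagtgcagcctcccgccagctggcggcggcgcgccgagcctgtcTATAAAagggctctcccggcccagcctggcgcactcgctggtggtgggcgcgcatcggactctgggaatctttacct
The E-box lies at positions -185 to -180 from the start in Gadd45b and -142 to -137 in Gadd45g, and 7.15% of the promoters searched held that sequence. The composite element of Gadd45g lies at -101 to -94 and was held by 3.97% of promoters. RefSeq promoters were matched for 7 of the 10 genes, and 3 of these, Dusp1 besides the GADD45 pair, held CACGTG. None of the 7 held the CArG box of serum response factor (1.63% of promoters), the AP-1 site TGANTCA (7.81%) or the EGR sites GCGGGGGCG (2.91%) and GCGTGGGCG (0.612%) in this window. The remaining motif, the full cyclic AMP response element TGACGTCA (1.79%), was found in Dusp1, at -143 to -136, where it overlaps the core TGACG. These matches describe letters, and binding was not tested.

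Gadd45b, at chr10:80930073-80932204, had 0.700, 0.783 and 1.36 CPM in Eif3m siRNA livers of day 9, against 0.669, 0.762 and 0.676 CPM in controls. Eif3m siRNA livers of day 13 had 0.280, 0.556 and 0.657 CPM, against 2.29, 2.14 and 1.84 CPM in controls. The groups of day 9 overlapped, and at day 13 every Eif3m siRNA library lay below every control. Day 13 rested on 2, 6 and 6 counts with Eif3m siRNA and 17, 15 and 17 counts in controls. Gadd45b had a log2 fold change of 0.42 (standard error 0.30, adjusted p = 0.396) at day 9 and -2.01 (SE 0.42, 95% interval -2.91 to -1.11, adjusted p = 0.00338) at day 13, a call held in 20 of 20 alternatives. The effects differed by -2.43 (SE 0.52, adjusted p = 0.0267). That call was held in 9 of 19 alternatives. Limma-voom, the replicate block and thinned day 9 counts lost it. The call was also lost without Eif3m siRNA replicate 3 (adjusted p = 0.0590) or control replicates 1 (0.0562), 2 (0.0525) or 3 (0.0566) of day 9. Without Eif3m siRNA replicates 1 (0.0562) or 3 (0.0511) or control replicate 1 (0.0585) of day 13 it was lost too.

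Gadd45g, at chr13:51846678-51848468, had 11.0, 10.3 and 5.35 CPM in Eif3m siRNA livers of day 9, against 1.41, 1.09 and 3.79 CPM in controls. With Eif3m siRNA for 13 days it had 4.76, 2.41 and 3.50 CPM, against 7.27, 11.8 and 1.84 CPM in controls. Every Eif3m siRNA library of day 9 lay above every control, and the controls of day 13 spanned the Eif3m siRNA libraries. Gadd45g had a log2 fold change of 2.10 (standard error 0.58, adjusted p = 0.0432) at day 9 and -0.97 (SE 0.72, adjusted p = 0.372) at day 13. The difference, -3.06 (SE 0.92, adjusted p = 0.107), did not pass. The day 9 call was held in 10 of 21 alternatives. The replicate block, thinned day 9 counts and no filter on low counts lost it. It was also lost without Eif3m siRNA replicates 1 (adjusted p = 0.117) or 2 (0.114) or control replicates 1 (0.125) or 2 (0.116) of day 9. Without Eif3m siRNA replicates 1 (0.0600), 2 (0.0605) or 3 (0.0639) or control replicate 1 (0.0618) of day 13 it was lost as well, and without control replicate 3 of day 9 the fold change was larger, at 2.84.

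The closest relative, Gadd45a, was listed with 5 other genes of this response, all tested. Gadd45a and Cdkn1a rose at both days and none fell, where 12.8% of all genes passed at day 9 and 23.7% at day 13. The median log2 fold change of the 6 was 1.03 at day 9 and -0.26 at day 13. Gadd45a averaged 22.9 ± 2.4 CPM with Eif3m siRNA and 9.48 ± 1.35 CPM in controls at day 9 (log2 fold change 1.27, adjusted p = 7.67e-05). At day 13 it averaged 71.3 ± 5.2 CPM with Eif3m siRNA and 6.36 ± 0.79 CPM in controls (3.49, adjusted p = 1.19e-08). Its effect differed between the days by 2.21 (adjusted p = 0.000376), while that of Gadd45b differed by -2.43. Cdkn1a, an inhibitor of cyclin-dependent kinases and, like Gadd45a, a target of p53, had log2 fold changes of 5.44 (adjusted p = 1.67e-05) and 5.07 (adjusted p = 1.65e-05).

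**Figure D2:**
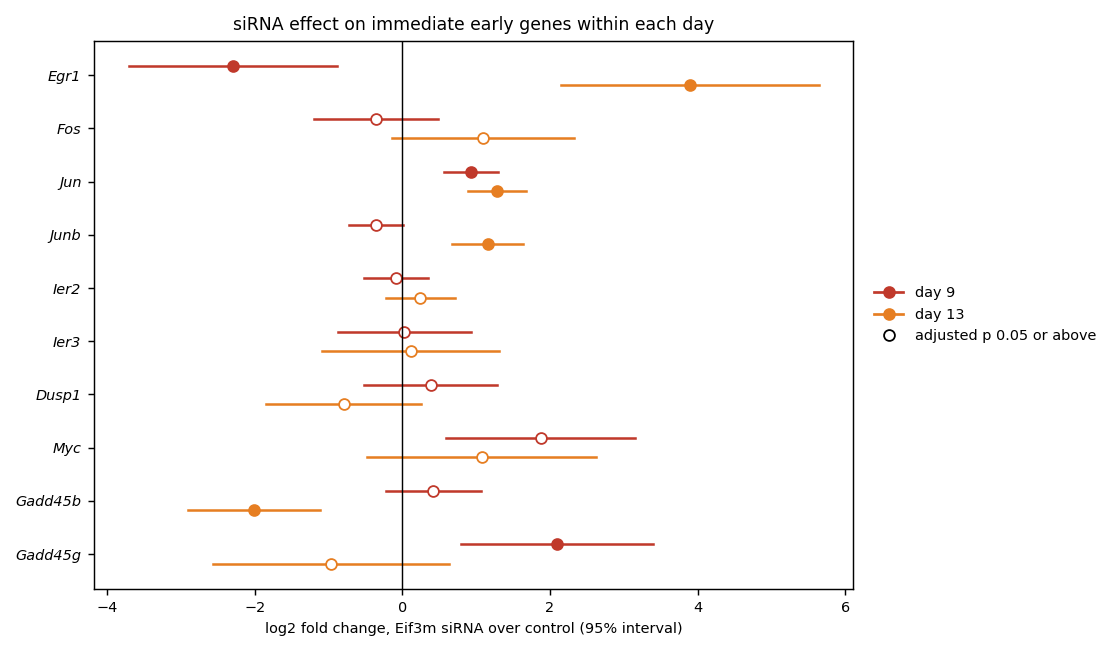
Log2 fold change of each of the 10 genes, Eif3m siRNA over control, at day 9 and day 13, with 95% intervals from edgeR's quasi-likelihood test. The Egr1 estimates lie at -2.30 and 3.90 on either side of 0, and the Jun estimates at 0.93 and 1.28.

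A list of 40 other immediate early genes was set beside the 10, and 34 of them were tested. At day 9, 9 rose and 2 fell, and at day 13, 6 rose and 7 fell, with median log2 fold changes of 0.18 and 0.12. Over all genes tested, 12.8% passed at day 9 and 23.7% at day 13. Plk2 and Plk3, stress-responsive kinases of the polo family, rose at both days, with log2 fold changes of 0.74 and 1.65 for Plk2 (adjusted p = 0.00468 and 1.57e-05) and 1.25 and 0.83 for Plk3 (adjusted p = 0.000544 and 0.00438). Ccn2, a matrix protein induced by YAP and TGF-beta, averaged 6.52 ± 0.68 CPM with Eif3m siRNA and 2.91 ± 0.47 CPM in controls at day 9, and 4.17 ± 0.45 CPM with Eif3m siRNA and 7.10 ± 0.62 CPM in controls at day 13. It thus rose at day 9 (1.16, adjusted p = 0.000503) and fell at day 13 (-0.77, adjusted p = 0.00878), the reverse of Egr1. Per1, a clock gene that is also signal-induced, averaged 27.9 ± 1.9 CPM with Eif3m siRNA and 15.0 ± 6.0 CPM in controls at day 9 (0.90, adjusted p = 0.0725), and 5.47 ± 2.08 CPM with Eif3m siRNA and 17.4 ± 5.9 CPM in controls at day 13 (-1.67, adjusted p = 0.00682). The effect differed between the days for 4 genes of the list, Plk2 and Hes1 upward and Ccn2 and Per1 downward, against 2.55% of all genes. Hes1, a repressor downstream of Notch, was named after its values were seen. The count of day 9 was 7 without Eif3m siRNA replicate 2 or control replicate 2 of that day. The count of day 13 was 8 without Eif3m siRNA replicate 2 of that day, and 5 without Eif3m siRNA replicate 3 or control replicate 1. Of 19 genes of messenger RNA decay, which sets the short life of these transcripts, Cnot7 rose at day 9. Tial1 and Cnot2 rose at day 13, and none fell, against the same 12.8% and 23.7% of all genes.

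**Figure D3:**
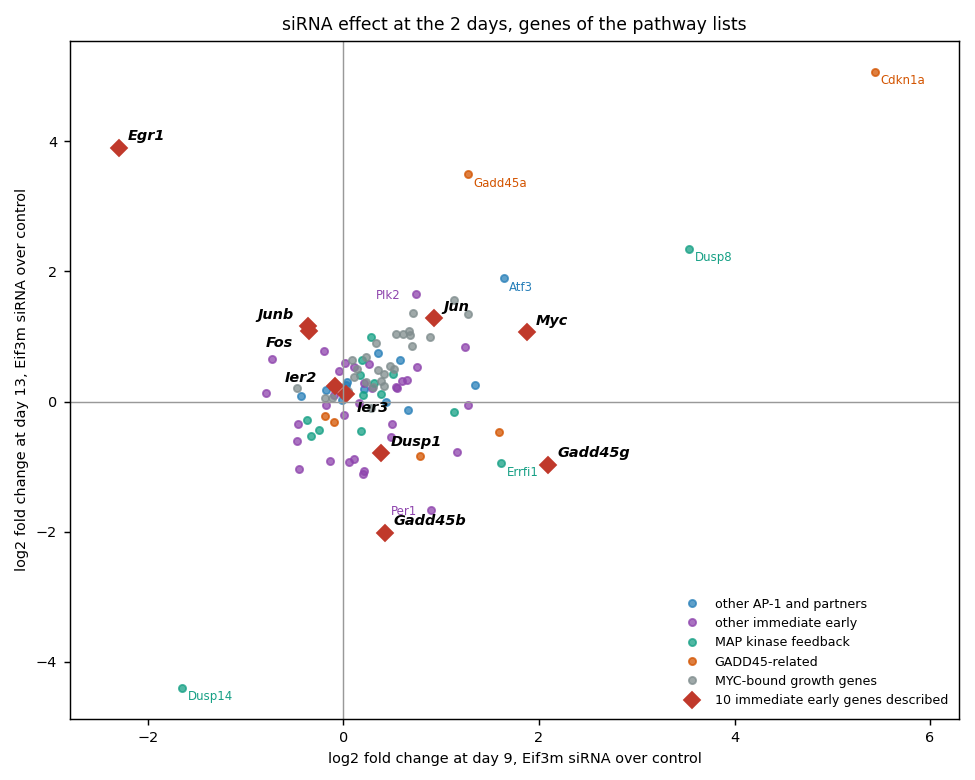
Log2 fold change, Eif3m siRNA over control, at day 9 (horizontal) and day 13 (vertical) for the 10 genes (diamonds) and genes of the pathway lists (circles). Egr1, at -2.30 and 3.90, is the only diamond that passed the test in opposite directions, and Gadd45a and Cdkn1a lie high at both days.

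Within each group, the median spread between libraries was larger for these genes than over all genes, without matching for level. The median SD of log2 CPM within a group over the 10 genes was 0.47 with Eif3m siRNA and 0.52 in controls at day 9, where the medians of all genes tested were 0.13 and 0.14. After 13 days it was 0.38 with Eif3m siRNA and 0.43 in controls, where the medians of all genes were 0.25 and 0.27. Above the median of all genes were 10 of the 10 with Eif3m siRNA and 7 in controls at day 9, and 6 with Eif3m siRNA and 7 in controls at day 13. The biological coefficient of variation, edgeR's relative SD between replicates, was 0.522 for Gadd45g, 0.518 for Egr1, 0.476 for Myc and 0.352 for Dusp1. It was 0.155 for Jun and 0.163 for Junb, close to the 0.142 that was the median of all genes. Gadd45b and Ier3 lay below the trend with level, at 0.220 against 0.275 and 0.281 against 0.309. Over all genes the median ratio of this coefficient to that trend was 0.83. With Eif3m siRNA at day 9, replicates 1, 2 and 3 were highest for 6, 0 and 4 of the 10 genes. At day 13 they were highest for 4, 1 and 5. In controls, the highest or lowest values often fell in 1 library, though the same count over all genes was not made. Control replicate 3 of day 9 was the highest control for 7 of the 10 genes, and control replicate 3 of day 13 the lowest for 8. Without that library 4 of the 10 genes passed at day 13, as with it.

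**Figure D4:**
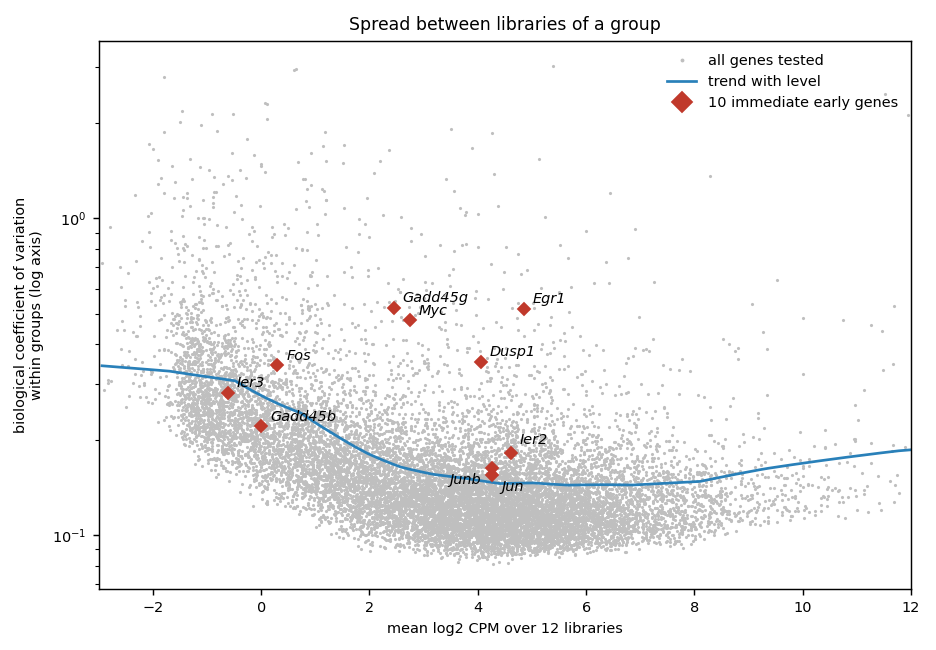
Biological coefficient of variation within groups (log axis) against the mean log2 CPM over the 12 libraries, for all genes tested (grey), the 10 genes (diamonds) and the trend with level (line). Of the 10, 8 lie above the trend, Gadd45g, Egr1 and Myc at 0.522, 0.518 and 0.476.

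Per kilobase of merged exon, Ier2 stood highest of the 10 genes in every group. It averaged 14.8 ± 3.5 CPM per kilobase with Eif3m siRNA and 15.7 ± 2.6 in controls at day 9, and 18.3 ± 0.8 with Eif3m siRNA and 15.5 ± 4.6 in controls at day 13. With Eif3m siRNA at day 9 it was followed by Junb at 10.8 ± 3.0 and Gadd45g at 7.60 ± 2.65. The SD range of each overlapped that of the gene above it, and Egr1 ranked 7 at 2.05 ± 0.91. In controls of day 9 Junb followed at 13.9 ± 1.0, within the spread of Ier2, and Egr1 ranked 3 at 10.1 ± 5.4. With Eif3m siRNA at day 13 Egr1 ranked 2 at 12.6 ± 7.4, not apart from Jun at 11.6 ± 1.1. In controls of day 13 Egr1 ranked 8 at 0.868 ± 0.301, and Gadd45g, Dusp1 and Jun lay together at 5.95 ± 4.26, 5.37 ± 1.81 and 4.78 ± 0.42. Fos, Ier3 and Gadd45b held the lowest ranks with Eif3m siRNA at both days and in controls at day 9.

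Likeness of pattern was measured as the root-mean-square difference of z-scored log2 CPM over the 12 libraries, where 0 means the same pattern. Closest to Jun were Wdr12 (0.243), a factor of large ribosomal subunit maturation, and Dynll1 (0.278), a light chain of dynein. Wdr12 rose at both days with log2 fold changes of 0.60 (adjusted p = 0.00227) and 1.05 (adjusted p = 2.76e-05). Closest to Gadd45b were Eif2ak3 (0.250), the endoplasmic reticulum stress kinase PERK, and Gpx3 (0.325), an extracellular glutathione peroxidase. Eif2ak3 had log2 fold changes of 0.12 (adjusted p = 0.527) and -1.07 (adjusted p = 4.14e-05). Closest to Junb were Mat2b (0.245) and Colec12 (0.247), to Egr1 Tab1 (0.418) and Ccdc138 (0.466), and to Gadd45g Ccl6 (0.469) and Wsb1 (0.529). By edgeR's test, Mat2b (adjusted p = 0.742 at day 9 and 0.0651 at day 13) and Ccdc138 (0.305 and 0.352) passed at neither day. Colec12 and Tab1 rose at day 13 only, and Ccl6 and Wsb1 at day 9 only. Dynll1 rose at both days, and Gpx3 fell at day 13 only. The likeness is shared across days, kits and depths and is a description.

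Markers of other liver cells differed between the groups too. Summed monocyte and macrophage markers lay between 139 and 159 CPM with Eif3m siRNA and between 64.1 and 82.9 CPM in controls at day 9, and between 81.6 and 101 CPM with Eif3m siRNA and between 144 and 178 CPM in controls at day 13. Of the 11 markers, 4 rose at day 9 and 4 fell at day 13, where 12.8% and 23.7% of all genes passed. Kupffer cell markers lay between 213 and 265 CPM with Eif3m siRNA and between 321 and 388 CPM in controls at day 9, and between 121 and 200 CPM with Eif3m siRNA and between 285 and 373 CPM in controls at day 13. Of these 10 markers, 5 fell at day 9 and 8 at day 13. Hepatocyte markers summed to 96032 to 103565 CPM with Eif3m siRNA and 120145 to 127408 CPM in controls at day 9, and to 109852 to 172910 CPM with Eif3m siRNA and 178354 to 205086 CPM in controls at day 13. Alb made up most of these sums. Of the 10 markers, 2 fell and none rose at day 9, and 3 rose and 3 fell at day 13, with median log2 fold changes of 0.13 and 0.05. Stellate cell and fibroblast markers lay between 373 and 422 CPM with Eif3m siRNA and between 278 and 373 CPM in controls at day 9, and between 374 and 394 CPM with Eif3m siRNA and between 473 and 650 CPM in controls at day 13. Of these 10 markers, 1 rose at day 9 and 4 fell at day 13. Gadd45g, higher at day 9, moved with the monocyte and macrophage markers at that day, and also with the stellate cell, fibroblast and cholangiocyte sums. Cholangiocyte sums lay at 26.4 to 28.9 CPM with Eif3m siRNA and 20.3 to 25.9 CPM in controls at day 9. At day 13 they lay at 26.4 to 35.05 CPM with Eif3m siRNA and 20.3 to 26.1 CPM in controls. Of 5 cholangiocyte markers tested, 0 passed at day 9 and 1 rose at day 13, with median log2 fold changes of 0.05 and -0.05. Gadd45b, lower at day 13, moved with the monocyte, macrophage and Kupffer cell markers at that day. The stellate, hepatocyte, endothelial and erythroid sums of day 13 were lower too. Endothelial sums lay at 324 to 371 CPM with Eif3m siRNA and 401 to 467 CPM in controls, and 4 of 11 markers fell. Erythroid sums lay at 704 to 1851 CPM with Eif3m siRNA and 2106 to 5963 CPM in controls, and 3 of 5 tested fell. Egr1 moved in the opposite direction to the monocyte and macrophage markers, and to the stellate cell and fibroblast sums, at both days. The part of these cells in the results was not tested.

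**Figure D5:**
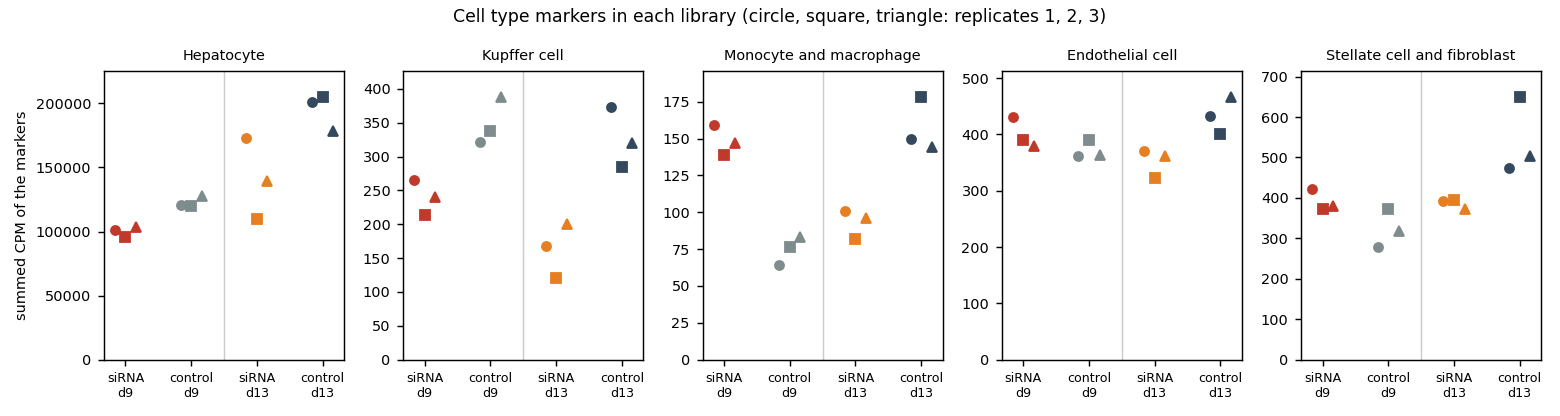
Summed CPM of the marker genes of liver cell types in each library, Eif3m siRNA left of control at each day. Monocyte and macrophage markers lie above the controls at day 9 and below them at day 13, and Kupffer cell markers lie below them at both days.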

How the data were processed

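Messenger RNA of 12 liver libraries, 3 in each of 4 groups, was analysed. The authors deposited estimated counts per Ensembl gene, which are whole numbers and were taken as rounded RSEM expected counts. STAR 2.5.3a, RSEM 1.3.0 and mm10 are named in the submitters' processing notes. For the annotation, the strand setting and filters, a statement is not given in the sources used here. Symbols, positions and exon lengths came from GENCODE M21 (GRCm38), with a symbol for 50462 identifiers, and promoters from RefSeq GRCm38.p6. Library kits are those of the labels' protocols.

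From the deposited counts, edgeR 4.0.16 fitted 1 model of 4 groups with TMM factors after filterByExpr (minimum count 10), tested 14248 genes with the robust quasi-likelihood F-test (two-sided, 8 residual degrees of freedom) and adjusted p-values by Benjamini-Hochberg. Standard errors are the log2 fold change over the square root of F. Contrasts were Eif3m siRNA minus control within a day, and the effect of day 13 less that of day 9. The procedure was tested on simulated data. DESeq2 1.42.0 and limma 3.58.1 (voom), other scalings and filters, each day alone, thinned day 9 counts, a replicate block and leaving out each library were alternatives. The members and gene lists were chosen with earlier results of these data known. Genes named were the members, up to 4 called genes with the smallest p per list and day (2 for the difference), and the 2 genes most like each called member. Intervals cover the spread between these libraries.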

Additional observations from a re-analysis of the deposited data

Results flagged for a closer look

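The siRNA effect differed between day 9 and day 13 for the genes below, by edgeR's quasi-likelihood test of the difference itself (day 13 effect minus day 9 effect, log2). Day and library kit cannot be told apart in these values. Among the 10 immediate early genes, the difference was 6.20 for Egr1 (adjusted p = 0.0186), 1.51 for Junb (adjusted p = 0.0151) and -2.43 for Gadd45b (adjusted p = 0.0267).

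Among genes of the pathway lists, the difference was 2.21 for Gadd45a (adjusted p = 0.000376), -1.93 for Ccn2 (adjusted p = 0.00242) and -0.90 for Nras (adjusted p = 0.00862). It was -2.56 for Per1 (adjusted p = 0.0199), 0.91 for Plk2 (adjusted p = 0.0450) and 0.66 for Npm1 (adjusted p = 0.0455). For Hes1, named after its values were seen, it was 1.39 (adjusted p = 0.0257). Among genes named for a pattern like that of a member, it was -2.08 for Gpx3 (adjusted p = 0.00256), -1.19 for Eif2ak3 (adjusted p = 0.00277) and 0.95 for Colec12 (adjusted p = 0.0258). For Wsb1 it was -1.84 (adjusted p = 0.0472) and for Dynll1 0.92 (adjusted p = 0.0472).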

How the results depend on the processing

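Over all genes, 1821 passed at day 9, with limma-voom giving 2740, each day on its own libraries 3412, day 9 counts thinned to day 13 depth giving 1163, and leaving out 1 library 884 to 2250. At day 13, 3377 passed (own libraries 2014, 1 library left out 2299 to 3288), 1824 higher and 1553 lower, where upper-quartile scaling gave 1574 higher and 1808 lower. For the difference 364 passed (DESeq2 991, replicate block 117, thinned 230, 1 library left out 130 to 508). Of the 10 members, 3 passed at day 9. DESeq2 and limma-voom gave 4 there, as did a mean of at least 5 CPM, with 7 tested. The replicate block, day 9 libraries alone and thinned day 9 counts gave 2. No filter on low counts gave 1, and 1 library left out 1 to 3. At day 13, 4 members passed (3 of 7 tested with a mean of at least 5 CPM, 5 of 8 tested on day 13 libraries alone). The other alternatives run also gave 4 at day 13. For the difference 3 members passed (DESeq2 4, limma-voom 1, 1 library left out 2 to 3). The replicate block, thinned counts and a mean of at least 5 CPM gave 2 for the difference. No named gene that passed changed direction. Replicate numbers are shared by the groups. Deviations of same-numbered samples of a day correlated at -0.16 to 0.16, and those of differently numbered samples at -0.14 to 0.23. With 3 libraries per group, this cannot tell whether same-numbered samples share a batch or handling. With the replicate as a block, 1216, 2681 and 117 genes passed at day 9, day 13 and for the difference, and 2, 4 and 2 members. Gadd45g at day 9 was among the calls lost (adjusted p = 0.128). The cause of these changes was not tested. Among the 10 members, Fos, Ier3 and Gadd45b, with few counts at day 13, are limited by depth, as is Dusp14 outside them.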
